A study of Mus musculus with 2 samples.

Results

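Alcohol, aldehyde and steroid dehydrogenases of the liver were compared between an irradiated and a control mouse sample. The set held every gene whose symbol is Adh, Aldh, Hsd, Akr or Rdh followed by a digit, except Hsd3b7, Akr1d1 and Hsd17b7. It came to 71 of the 22180 genes measured by a probe set with exactly 1 gene symbol. Liver RNA of male C57BL/6 mice, an inbred strain, was taken at 9 weeks of age and run on 1 Affymetrix array per group. The irradiated sample came from animals given 6 Gy of whole-body gamma rays in 1 exposure under anaesthesia at 4 weeks of age, 5 weeks before sampling, at 0.81 Gy per minute. The control was untreated. The labels do not say whether a sample was 1 mouse or a pool, or whether the control was anaesthetised. Since each group had 1 array and hence no replicate, no test was made, and every difference below describes these 2 arrays.

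These enzymes move hydrogen between a substrate and the cofactors NAD and NADP. Alcohol dehydrogenases turn alcohols into aldehydes, and aldehyde dehydrogenases turn the aldehydes into acids. Retinol dehydrogenases (Rdh) and the Aldh1a enzymes do the same to vitamin A, in 2 steps that give retinoic acid, while hydroxysteroid dehydrogenases (Hsd) and aldo-keto reductases (Akr) switch steroids between active and inactive forms or reduce reactive carbonyls. Hepatocytes hold many of them in large amounts, and several are sex-biased in mouse liver.

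The unit is the log2 RMA value, and each difference is that of the irradiated minus that of the control array. A gene with at least 1 value of 6.06 or more, the pooled median of both arrays, is called expressed. This floor is a rank and not a measured background. It kept 54 of the 71 members, and 2 of these, Akr1b8 and Hsd17b1, passed only on the irradiated array. The 6 general hepatocyte markers read alike on both arrays, with differences between -0.02 and 0.01. The 7 pericentral hepatocyte markers ran from -0.26 for Oat to 0.08 for Slc1a2. Of these 7, 3 were above 0 and 4 below, with a median of -0.00. In bulk tissue, fewer cells of a type and less RNA per cell cannot be told apart.

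Most members differed little. Of the 54 expressed members, 1 was at least 1.5-fold higher and 0 were at least 1.5-fold lower, where 1.14% and 0.650% of the 13689 expressed genes were. At 1.2-fold, 5 members were higher and 3 lower, or 9.26% and 5.56%, against 7.20% and 6.54% of expressed genes. These shares lie near the background. Akr1b8, the member past 1.5-fold, and Hsd17b1 passed the floor on the irradiated array only. Among the 52 members above it on both arrays, 0 were at least 1.5-fold higher or lower. At 1.2-fold, 3 of these were higher and 3 lower, or 5.77% each. Of all 54, 32 were below 0 (59.3%), against 50.3% of expressed genes. The 5 higher members were Akr1b8, Akr1b10, Akr1c19, Aldh18a1 and Hsd17b1, and the 3 lower ones were Rdh16f2, Rdh16 and Hsd3b5. Only 4 of the 54, Rdh16f2, Rdh16, Akr1b10 and Akr1b8, lay outside the central 95% of expressed genes, which ran from -0.37 to 0.42. By definition 95% of all expressed genes lie inside that range. With its control value set to the floor, Akr1b8 differed by 0.11 and lay inside it.

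**Figure D1:**
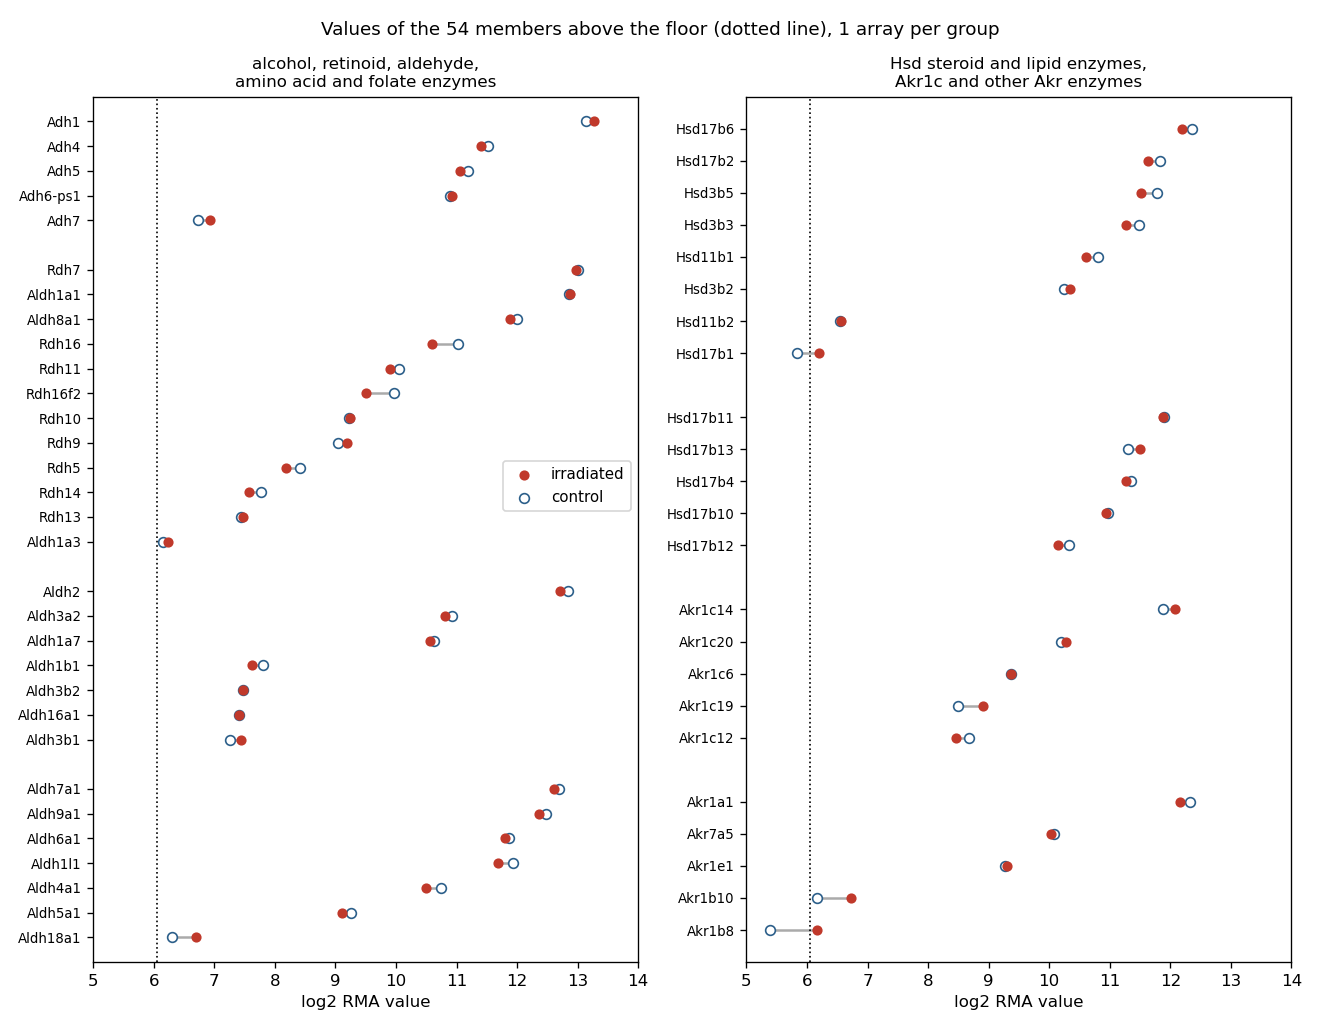
The log2 RMA values (x axis) of the 54 expressed members are shown by role, with filled red points for the irradiated array and open blue points for the control array. The dotted line is the floor of 6.06. Most pairs of points touch, and the widest gaps are those of Akr1b8, Akr1b10, Rdh16f2 and Rdh16.

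The promoters of the expressed members with the 4 largest differences are shown for reference, with that of Rdh9, a neighbour of Rdh16 that differed the other way. Each is the RefSeq window of 300 bases on GRCm38.p6, from 250 bases before the annotated gene start to 50 after it, 5′ to 3′ on the gene's strand, which is the plus strand for all 5. Capitals in the Rdh sequences mark the longest run shared by Rdh16 and Rdh16f2, and capitals in the Akr1b sequences the longest run shared by that pair.
Rdh16, chr10:127800903-127801202: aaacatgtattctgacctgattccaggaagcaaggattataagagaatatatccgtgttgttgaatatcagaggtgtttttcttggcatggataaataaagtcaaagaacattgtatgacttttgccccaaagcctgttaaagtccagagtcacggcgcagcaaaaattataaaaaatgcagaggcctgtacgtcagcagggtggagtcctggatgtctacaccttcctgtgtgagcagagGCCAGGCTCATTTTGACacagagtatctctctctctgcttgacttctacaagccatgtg
Rdh16f2, chr10:127866226-127866525: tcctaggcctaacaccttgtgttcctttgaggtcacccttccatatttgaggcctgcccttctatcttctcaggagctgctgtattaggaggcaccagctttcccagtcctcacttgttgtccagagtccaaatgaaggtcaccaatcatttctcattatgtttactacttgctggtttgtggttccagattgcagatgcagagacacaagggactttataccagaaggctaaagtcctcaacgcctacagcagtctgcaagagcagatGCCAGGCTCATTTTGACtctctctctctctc
Rdh9, chr10:127776155-127776454: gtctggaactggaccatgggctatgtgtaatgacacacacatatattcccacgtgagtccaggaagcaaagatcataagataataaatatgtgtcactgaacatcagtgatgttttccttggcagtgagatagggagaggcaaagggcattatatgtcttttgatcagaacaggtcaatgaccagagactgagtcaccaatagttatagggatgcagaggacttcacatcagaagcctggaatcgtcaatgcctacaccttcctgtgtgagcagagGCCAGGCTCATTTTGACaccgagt
Akr1b8, chr6:34353896-34354195: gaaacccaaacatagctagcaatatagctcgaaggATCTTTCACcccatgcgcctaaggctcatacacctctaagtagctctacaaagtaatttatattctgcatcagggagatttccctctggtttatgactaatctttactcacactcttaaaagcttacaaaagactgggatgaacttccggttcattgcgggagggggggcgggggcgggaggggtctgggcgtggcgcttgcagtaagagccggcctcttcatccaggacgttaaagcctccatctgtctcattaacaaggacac
Akr1b10, chr6:34383997-34384296: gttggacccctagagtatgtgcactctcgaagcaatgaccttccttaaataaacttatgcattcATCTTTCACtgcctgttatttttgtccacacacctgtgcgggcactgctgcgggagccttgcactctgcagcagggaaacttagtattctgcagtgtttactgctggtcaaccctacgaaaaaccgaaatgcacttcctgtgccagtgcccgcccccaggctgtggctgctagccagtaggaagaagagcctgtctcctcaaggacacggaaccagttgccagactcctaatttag

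The 17-base run GCCAGGCTCATTTTGAC was found in 3 of the 32851 RefSeq promoter windows, those of Rdh16, Rdh16f2 and Rdh9. Rdh16 and Rdh9 shared a longer run of 43 bases. Their windows, 60.2% identical in a global alignment, were the most alike of 1431 pairs of member promoters, expressed or not. The pair that was lower together, Rdh16 and Rdh16f2, had 51.1% identity, and the pair Akr1b8 and Akr1b10, both higher, 51.2%, where the median pair had 49.6%. The 9 shared bases of the Akr1b pair occur in 31 windows. The most alike windows thus belonged to genes that differed in opposite directions, Rdh16 lower and Rdh9 higher.

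A search of both strands for 5 short motifs gave shares among 61 member windows near those among all windows. These windows belonged to the 54 of all 71 members, expressed or not, that had one, and not to the 54 expressed members. The antioxidant response core TGACNNNGC was in 14.8% of member windows and 12.4% of all, the AP-1 motif TGANTCA in 8.2% and 7.81%, and the TATA box TATAAA in 13.1% and 13.6%. The nuclear receptor hexamer AGGTCA was in 21.3% and 16.3%, and the C/EBP-ATF element TGATGNAA in 1.64% and 3.97%. Of the 8 members past 1.2-fold, 7 had a window. AGGTCA was in those of Rdh16, Rdh16f2 and Akr1b10, and TGACNNNGC in that of Akr1c19 only. TATAAA was in those of Rdh16, Rdh16f2 and Akr1b8. The window of Rdh9 printed above also holds AGGTCA. A match is a description of letters and not a site.

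Among expressed members, the retinol dehydrogenases held the 2 largest lower differences. Rdh16, also named CRAD1, oxidises retinol and some steroids, and read 10.59 on the irradiated array against 11.02 on the control array. It was 1.34-fold lower (-0.43). Rdh16f2, a family member of the same cluster, read 9.50 in the irradiated sample and 9.97 in the control, 1.38-fold lower (-0.47). A probe set annotated with both Rdh18-ps and Rdh16 differed by -0.73, from values of 4.97 in the irradiated sample and 5.69 in the control that both lay below the floor. Rdh19, also below the floor, read 3.43 against 4.15 (-0.72).

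The expressed neighbours in that cluster differed less. In RefSeq the order along the chromosome is Rdh1, Rdh9, Rdh16, Rdh18-ps, Rdh19, Rdh16f2, Rdh7 and Hsd17b6. Rdh7, or CRAD2, read 12.97 in the irradiated sample and 13.00 in the control (-0.04). Rdh9, or CRAD3, was the 1 gene of the cluster above 0, at 9.18 in the irradiated sample against 9.05 in the control (0.14). Hsd17b6, an enzyme that acts on androgens and retinoids, differed by -0.17, and Rdh1, below the floor, by -0.19. These genes have close paralogs, so that probes can cross-hybridise between them.

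**Figure D2:**
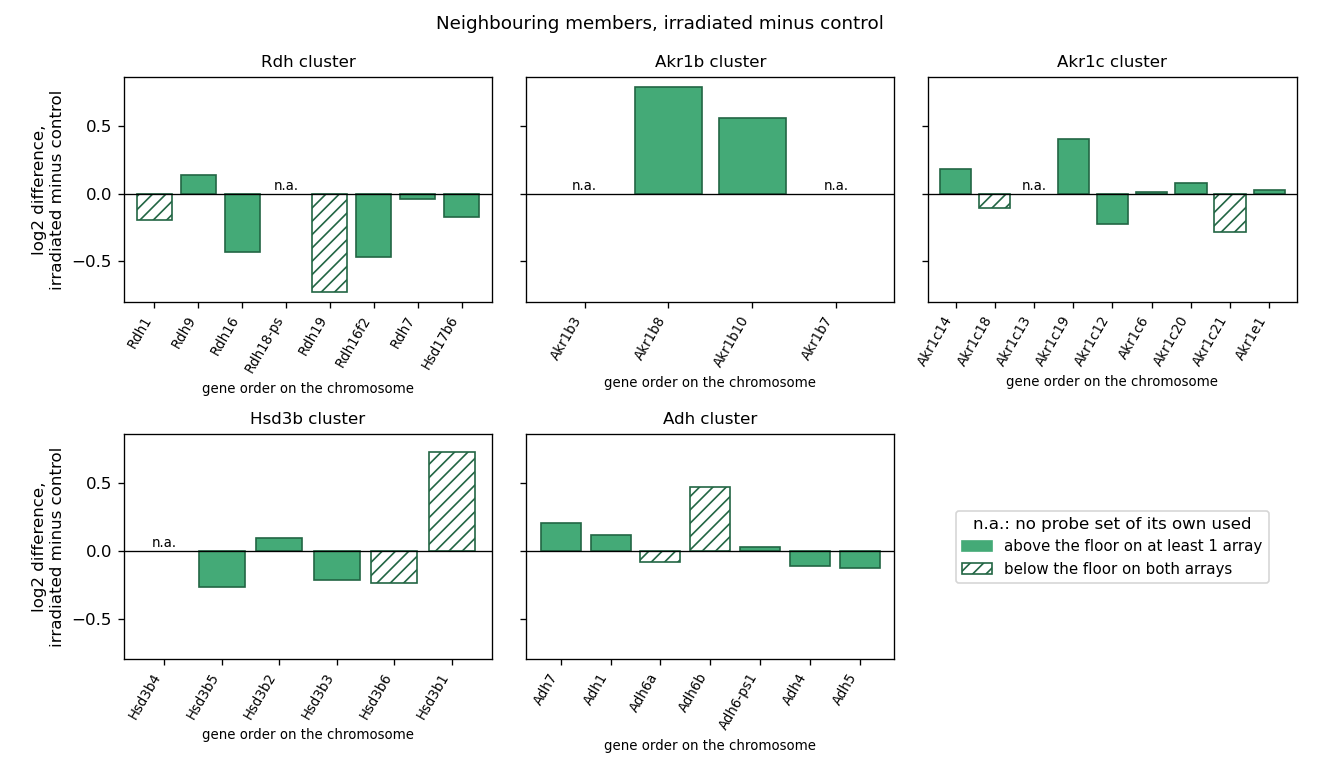
Each panel shows 1 cluster of neighbouring members in their RefSeq order (x axis), with the log2 difference, irradiated minus control (y axis), as a bar. Hatched bars are genes below the floor on both arrays. Rdh16 (-0.43) and Rdh16f2 (-0.47) stand beside Rdh9 at 0.14 and Rdh7 at -0.04, and both measured Akr1b genes are above 0.

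Rdh10, the main enzyme that makes retinal in the embryo, read 9.24 in the irradiated sample and 9.22 in the control (0.02). Rdh11, which mostly reduces retinal back to retinol, read 9.90 against 10.05 (-0.15). Rdh5, known for the visual cycle, was lower by 0.23 and Rdh14 by 0.21, both short of 1.2-fold. Mitochondrial Rdh13 differed by 0.02, while its second probe set, below the floor, differed by 0.56. In all, 9 of 13 Rdh genes were expressed, with a median of -0.15 and 6 below 0 (66.7%). Of all expressed genes, 50.3% were below 0.

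The Aldh1a enzymes, which make retinoic acid from retinal, differed little. Aldh1a1 read 12.88 on the irradiated array and 12.86 on the control array (0.03). Aldh1a3 was just above the floor at 6.23 in the irradiated sample against 6.15 in the control (0.08). Aldh1a2 was below the floor on both arrays, at 5.33 in the irradiated sample and 5.17 in the control. Aldh8a1, an enzyme of retinal oxidation and of tryptophan breakdown, differed by -0.11. The 12 expressed retinoid members, Rdh and Aldh together, had a median of -0.08.

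Genes that handle retinoids but are not members differed in both directions. Of 22 expressed genes on that list, 2 were at least 1.2-fold higher (9.09%) and 3 lower (13.6%), with a median of -0.02, where 7.20% and 6.54% of all expressed genes were. Cyp26a1, the retinoic acid hydroxylase that retinoic acid itself induces, read 9.32 in the irradiated sample and 10.26 in the control, a difference of -0.94. Its paralog Cyp26b1 went the other way, at 7.89 in the irradiated sample against 7.38 in the control (0.51). Bco2, which cleaves carotenoids, differed by -0.47 and the retinoid X receptor gene Rxrg by -0.30. Dhrs9, a retinol and steroid dehydrogenase of epithelia, read 6.32 in the irradiated sample and 5.48 in the control (0.84). It passed the floor on the irradiated array only, and differed by 0.26 with the control value set to the floor. The retinol esterifying gene Lrat, a stellate cell marker, was among the genes that did not reach 1.2-fold.

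Stellate cells store vitamin A, and their 7 markers summed to 4741 on the linear scale in the irradiated sample against 3387 in the control. All 7 were above the floor and 6 were above 0, of which Acta2 (1.97) and Des (0.95) passed 1.5-fold. Acta2 alone gave 1399 of the sum in the irradiated sample and 357 in the control. The other 5, Lrat among them, lay between -0.03 and 0.18. The part of these cells in the retinoid values was not tested.

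Among expressed members, the aldo-keto reductases held the 2 largest higher differences. Akr1b8, an aldose reductase-like enzyme known as a growth factor-induced protein, read 6.17 on the irradiated array and 5.38 on the control array. It was 1.72-fold higher (0.78) as measured, but 1.08-fold higher (0.11) with the control value set to the floor. Akr1b10, its neighbour and a reductase of aldehydes, read 6.73 in the irradiated sample against 6.17 in the control, above the floor on both arrays and 1.48-fold higher (0.56). It was the largest difference among members above the floor on both arrays. The genes Akr1b3 and Akr1b7 of the same cluster were not analysed here.

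Markers of bile ducts and gut were also mostly higher. All 5 bile duct markers found were above 0, with a linear sum of 680.1 in the irradiated sample and 480.1 in the control. Krt19 (2.29-fold) and Epcam (1.68-fold) passed 1.5-fold, and Cldn7 lay below the floor on both arrays. Of 7 gut epithelium markers, 6 were above 0, with a sum of 1822 against 1688. Among them, Lgals4 differed by 1.06, while Fabp2, the brightest, differed by -0.16, and Cdh17, Krt20 and Muc13 were below the floor on both arrays. Of 3 pancreas markers found, Ctrb1 was 6.28-fold higher (2.65), while Cela1 differed by -0.02 and Cpa1, below the floor, by 0.02. Of 5 macrophage markers, 4 were above 0, with Vsig4 at 0.40 and Cd68 at 0.36. Whether these cell types contributed to Akr1b8 and Akr1b10 was not tested.

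Within the Akr1c cluster, whose enzymes reduce steroids and other ketones, the genes differed in both directions. Akr1c19 read 8.91 in the irradiated sample and 8.50 in the control, 1.32-fold higher (0.41). Akr1c12, next to it, read 8.46 against 8.68 (-0.22), while a probe set annotated with both Akr1c13 and Akr1c12 differed by 0.12. The 3α-hydroxysteroid dehydrogenase gene Akr1c14 read 12.07 in the irradiated sample and 11.89 in the control (0.18). Akr1c20 differed by 0.08, and Akr1c6, a 17β-hydroxysteroid dehydrogenase, by 0.01. These genes are close copies, and probes can cross-hybridise.

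The remaining expressed aldo-keto reductases were close to 0. Akr1a1, the general aldehyde reductase that serves ascorbate synthesis in mice, read 12.16 in the irradiated sample and 12.32 in the control (-0.15). Akr7a5, which reduces aflatoxin dialdehyde, differed by -0.05 and Akr1e1 by 0.03. Over 10 expressed Akr genes the median was 0.05, with 7 above 0 and 3 below (30.0%), where 50.3% of all expressed genes were below 0.

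None of the 5 expressed alcohol dehydrogenase genes reached 1.2-fold. Adh1, the class I enzyme that oxidises most ethanol, read 13.26 on the irradiated array and 13.15 on the control array (0.12). A second Adh1 probe set, below the floor, differed by 0.27. Adh4 (class II) read 11.41 against 11.52 (-0.11). Adh5, which clears formaldehyde and S-nitrosoglutathione, read 11.05 in the irradiated sample and 11.18 in the control (-0.13). Adh7, a retinol-oxidising enzyme of the stomach and other epithelia, was 0.21 higher, and the transcribed pseudogene Adh6-ps1 differed by 0.03. Below the floor, Adh6a differed by -0.08, and Adh6b read 4.46 in the irradiated sample against 3.99 in the control (0.47). The expressed genes had a median of 0.03.

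Of the 17 expressed aldehyde dehydrogenases, 12 were below 0 (70.6%), with a median of -0.08, where 50.3% of all expressed genes were. Aldh2, the mitochondrial enzyme that oxidises acetaldehyde, read 12.71 in the irradiated sample and 12.84 in the control (-0.12), and its second probe set differed by -0.19. Aldh3a2, which oxidises fatty aldehydes, read 10.80 against 10.92 (-0.12), with -0.40 on its second probe set. Aldh1b1 differed by -0.19, Aldh1a7 by -0.06 and Aldh3b1 by 0.19. Aldh3b2 and Aldh16a1 were at 0.00 and -0.01.

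Of 7 expressed Aldh genes of amino acid and folate metabolism, 6 were below 0 (85.7%), where 50.3% of all expressed genes were. Aldh4a1, which completes proline breakdown to glutamate, read 10.49 in the irradiated sample and 10.74 in the control (-0.25). Aldh18a1 catalyses the opposite route, the first step of proline synthesis from glutamate. It read 6.70 in the irradiated sample against 6.31 in the control, 1.31-fold higher (0.39). Aldh1l1, the cytosolic formyltetrahydrofolate dehydrogenase, was lower by 0.25, at 11.68 in the irradiated sample and 11.93 in the control. Aldh4a1 and Aldh1l1 were just short of 1.2-fold, which is 0.26 on the log2 scale. Aldh5a1 of GABA breakdown differed by -0.16 and Aldh9a1 of carnitine synthesis by -0.11. The valine enzyme gene Aldh6a1 was at -0.06 (-0.38 on a second probe set, below the floor) and the lysine enzyme gene Aldh7a1 at -0.08.

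Partners in alcohol, aldehyde and acetate metabolism differed in both directions. Of 15 expressed genes, 1 was at least 1.2-fold higher (6.67%) and 3 lower (20.0%), where 7.20% and 6.54% of all expressed genes were. The median was -0.03. The acyl-CoA synthetase gene Acss3 read 7.34 in the irradiated sample and 8.13 in the control (-0.79). Acss2, which activates acetate in the cytosol, differed by -0.35, the carbonyl reductase gene Dcxr by -0.34 and the aldehyde oxidase gene Aox1 by 0.27.

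**Figure D3:**
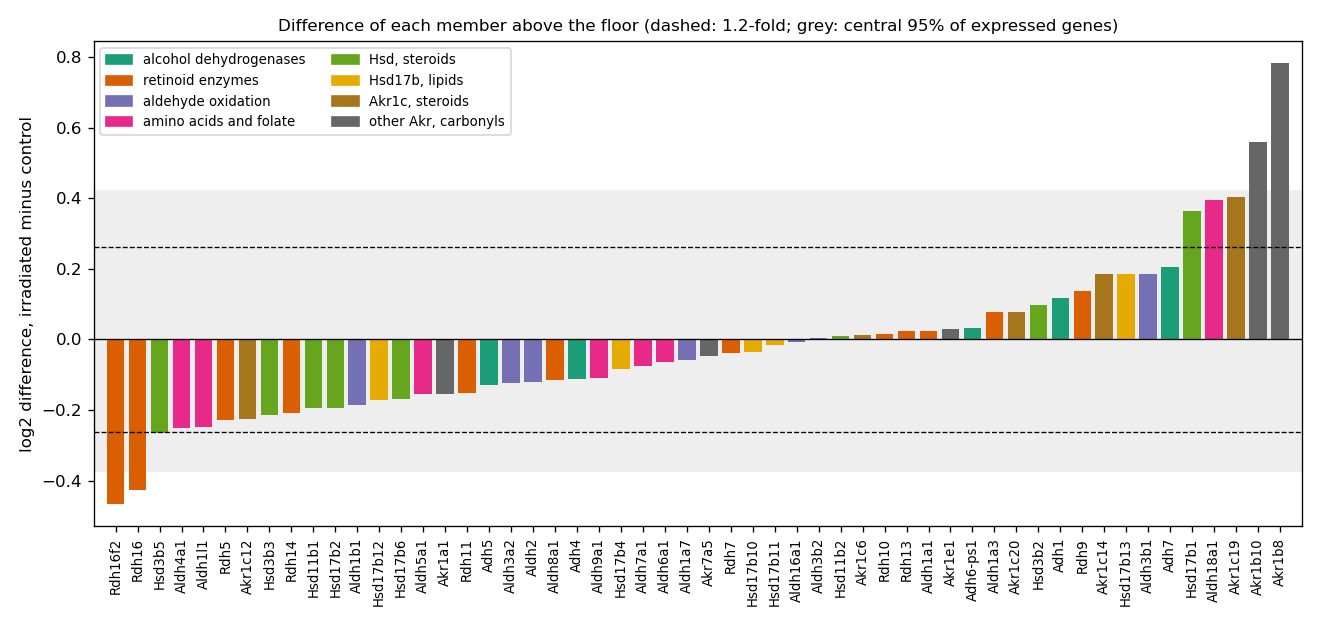
Bars give the log2 difference (y axis), irradiated minus control, of each of the 54 expressed members in order of size, coloured by role. Dashed lines mark 1.2-fold and the grey band the central 95% of the 13689 expressed genes, from -0.37 to 0.42. Rdh16f2 and Rdh16 lie below the band, and Akr1b10 and Akr1b8 above it.

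Among the steroid enzymes, Hsd3b5 was the member past 1.2-fold in the lower direction. It encodes a 3-ketosteroid reductase more abundant in male mouse liver, and read 11.52 on the irradiated array and 11.79 on the control array, 1.2-fold lower (-0.27). It was short of 1.2-fold after quantile normalization (-0.261) and loess scaling (-0.25), as 1.2-fold is 0.263 on the log2 scale. Its neighbours split, with Hsd3b3 at 11.27 in the irradiated sample against 11.49 in the control (-0.22), and Hsd3b2 at 10.35 against 10.25 (0.10). Both probe sets annotated with Hsd3b4, Gm10681 and Hsd3b5 held 1 pair of values and differed by -0.10. Hsd3b1, the form of adrenal and gonads, read 4.29 in the irradiated sample and 3.56 in the control, so that its difference of 0.73 lay wholly below the floor. Of 6 adrenal cortex markers, 5 were also below the floor on both arrays.

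Hsd11b1, which regenerates active glucocorticoid in liver, read 10.61 in the irradiated sample and 10.81 in the control (-0.19). Hsd11b2, the inactivating enzyme of the kidney, differed by 0.01. Hsd17b2, which inactivates estradiol and testosterone, read 11.64 against 11.83 (-0.19). Hsd17b1, which makes estradiol, read 6.19 in the irradiated sample and 5.83 in the control, 1.29-fold higher (0.36) as measured and 0.13 against the floor. Over the 8 expressed Hsd genes of steroid metabolism the median was -0.18, and 5 were below 0 (62.5%). Of all expressed genes, 50.3% were below 0.

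The Hsd17b enzymes of lipid metabolism were all within 1.2-fold. Hsd17b13, a lipid droplet protein of hepatocytes, was the 1 of 5 above 0, at 11.49 in the irradiated sample and 11.31 in the control (0.19). Hsd17b11, also on lipid droplets, read 11.88 against 11.90 (-0.01). Hsd17b12 of fatty acid elongation differed by -0.17, peroxisomal Hsd17b4 by -0.08 and mitochondrial Hsd17b10 by -0.04.

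Of 15 expressed partner genes in steroid and bile acid metabolism, 1 was at least 1.2-fold higher (6.67%) and 2 lower (13.3%). Of all expressed genes, 7.20% and 6.54% were. The steroid hydroxylase gene Cyp17a1 read 8.75 in the irradiated sample and 9.27 in the control (-0.52), the estrogen receptor gene Esr1 9.01 against 9.31 (-0.30), and the glucocorticoid-induced Fkbp5 8.54 against 8.25 (0.29). Among 14 regulators of sex-biased, nuclear receptor and retinoid genes, Bcl6, a repressor linked to male-biased expression, was higher by 0.59 and Nr0b2 differed by -1.16. No other regulator reached 1.2-fold, so that the share was 7.14% in each direction, near that of all expressed genes.

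**Figure D4:**
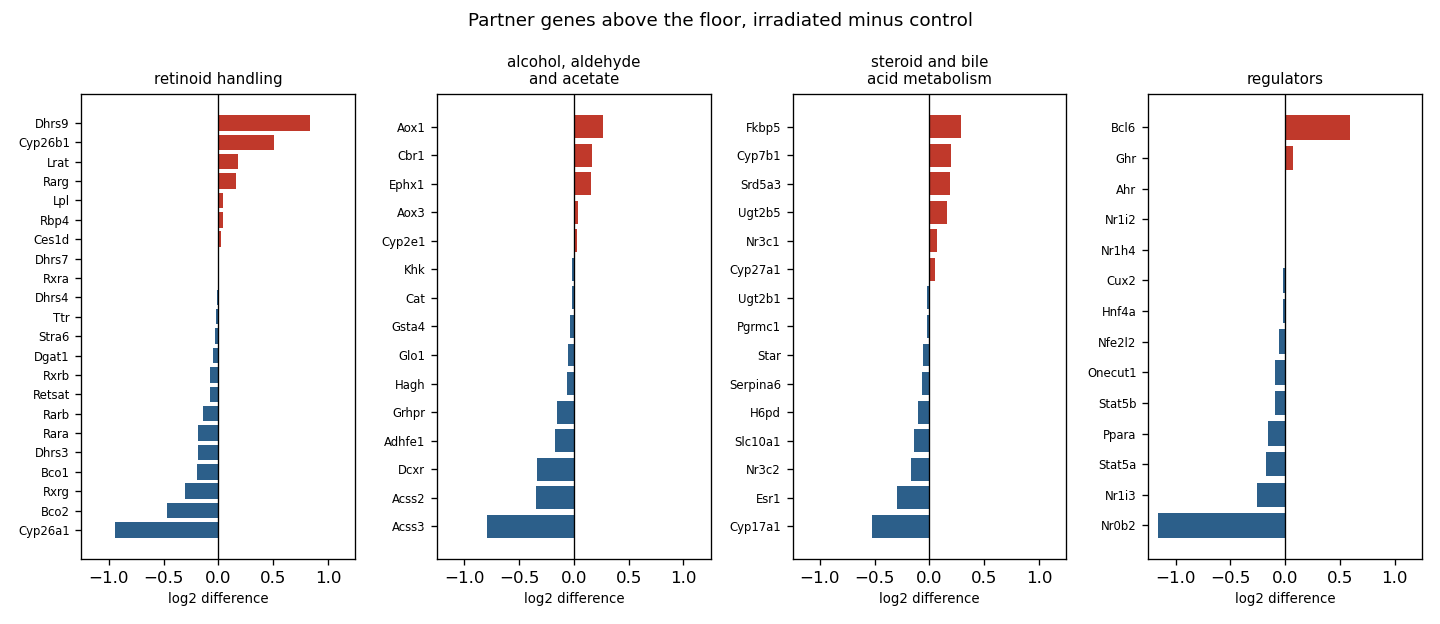
Bars give the log2 difference (x axis), irradiated minus control, of the expressed genes of each partner list, red above 0 and blue below. Cyp26a1 (-0.94), Acss3 (-0.79) and Nr0b2 (-1.16) are the longest bars to the left, and Dhrs9 (0.84), Bcl6 (0.59) and Cyp26b1 (0.51) the longest to the right.

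With all families pooled, the lower differences were small and lay mostly among members with high signal. Of 31 members whose 2 values averaged 10 or more, 24 were below 0 (77.4%), with a median of -0.11. Of all 2005 genes in that range, 1106 were below 0 (55.2%), with a median of -0.01. The largest lower difference of the 31 was that of Rdh16 and the largest higher one that of Hsd17b13. Rdh16f2, the lowest of the expressed members, averaged 9.73 and lay under that range. The Adh and Akr genes of high signal went both ways. Adh1, Adh6-ps1, Akr1c14 and Akr1c20 were above 0, and Adh4, Adh5, Akr1a1 and Akr7a5 below. Among the 23 expressed members of lower signal, 15 were above 0, with a median of 0.02, where 5752 of all 11684 expressed genes of lower signal were above 0, with a median of 0.00. The 15 members include Akr1b8 and Hsd17b1, which passed the floor on the irradiated array only. Of the 52 members above the floor on both arrays, 20 were above 0 and 32 below. The boundary at 10 was chosen after the values were seen. Over all 54 the median was -0.05, against -0.00 over all expressed genes.

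**Figure D5:**
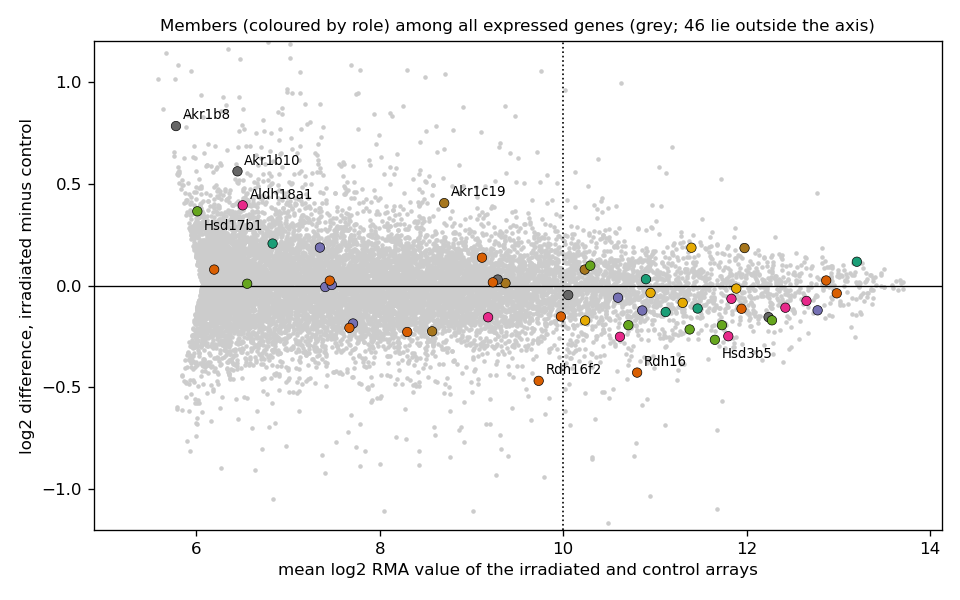
The log2 difference, irradiated minus control (y axis), is set against the mean log2 RMA value of both arrays (x axis), with members in colour by role and all expressed genes in grey. The dotted line is at 10. To its right 24 of 31 members lie below 0, and the labelled genes are the 8 members past 1.2-fold.

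The 17 members below the floor were Adh6a, Adh6b, Akr1c18, Akr1c21, Akr1cl, Aldh1a2, Aldh1l2, Aldh3a1, Aldh3b3, Hsd17b3, Hsd17b14, Hsd3b1, Hsd3b6, Rdh1, Rdh8, Rdh12 and Rdh19. Their differences ran from -0.72 for Rdh19 to 0.73 for Hsd3b1, with 6 above 0 and 11 below.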

How the data were processed

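The deposited log2 values came from Affymetrix Expression Console 1.3.1, where the authors ran RMA, per the submitters' processing notes. This method corrects background, normalizes arrays and summarises probes. No log base is stated in the file. It was read as log2 because values ran from 1.46 to 13.9. Array medians were 6.07 (irradiated) and 6.05 (control). Intensities were not used here, and 1 array per group limits the precision.

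Of 41345 probe sets, 23521 had 1 symbol in GEO's platform annotation, which can be old, 1814 several and 16010 none. For genes with several, the brightest on average was kept. Entrez IDs of all 71 members matched RefSeq GRCm38.p6, used for gene order and promoters. Promoters were aligned with Biopython 1.88.

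Named members were those past 1.2-fold, the 3 of highest signal per family, those below the floor past 1.5-fold and a fixed list. Up to 4 expressed genes past 1.2-fold were planned per partner list, and Rxrg was named beyond that number. Other members were added for their roles or their place beside a named one, and all were chosen with earlier results of these data known, as were the lists. The code was tested on simulated data.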

Additional observations from a re-analysis of the deposited data

How the results depend on the processing

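No paired analysis was possible because there was a single array on each side. All alternatives reran the same 2 arrays. The count of members at least 1.5-fold higher, 1 as reported (Akr1b8), was 2 with no floor, and 0 in 4 settings. These were a 75th percentile floor, an offset of 32 on the linear scale, raising low values to the floor, and a floor applied to the mean of both arrays. The count at least 1.5-fold lower, 0 as reported, was 1 with no floor. Members at least 1.2-fold higher, 5 as reported, numbered 8 with no floor, 1 with the 75th percentile floor, and 3 with low values set to the floor or the floor on the mean. They numbered 4 with the offset of 32 and 6 with probe sets averaged. Members at least 1.2-fold lower, 3 as reported, numbered 5 with no floor or with each array centred on its median, and 2 with quantile normalization or loess, where Hsd3b5 was short of it. The median of expressed members was -0.11 with the 75th percentile floor, which keeps 43 members. No floor, the 75th percentile floor and the floor on the mean change which members are counted. With the offset of 32 and with low values raised, Akr1b8 differed by 0.49 and 0.11, short of 1.5-fold. Centring lowers every difference by the same amount, which brought Aldh4a1 and Aldh1l1, both at -0.25 as reported, past 1.2-fold. With the offset of 32, Hsd17b1 differed by 0.24, short of 1.2-fold. With probe sets averaged, Rdh13, whose probe sets differed by 0.02 and 0.56, was added. Changes not named here were not traced. For the members of high signal, the median ran from -0.13 with centring to -0.09 with loess, and -0.11 was reported. The 5 family medians kept their sign under centring, quantile and loess scaling. Of the 11 alternatives, 4 only choose which members are counted and leave a gene's own difference as it is. Under the other 7, 198 of 210 values of 30 named members moved by less than 0.1. The 12 larger moves were 6 with the offset of 32, 5 with low values set to the floor and 1 with probe sets averaged, and 0 members past 1.2-fold changed sign. The floor on the mean and the boundaries of 9 and 11 in place of 10 were added after the data were seen.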
